A study of Mus musculus with 24 samples.

Results

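Major urinary protein (Mup) genes encode small lipocalins. Described here are the 5 of them named Mup1, Mup3, Mup7, Mup20 and Mup21, chosen as the entries of the deposited tables that carry exactly these symbols. They are 5 of 24344 genes, and 5 of 20 symbols of the Mup family in the tables. RNA came from liver of C57BL/6 mice at postnatal day 5 or day 60. The mice were wild type or hCAR-TG, a line with human CAR knocked in. CAR, the constitutive androstane receptor, is a nuclear receptor of hepatocytes that switches on drug-metabolizing enzymes. Wild type mice received corn oil or TCPOBOP, a ligand of mouse CAR, and hCAR-TG mice received corn oil or CITCO, a ligand of human CAR, so that receptor and ligand always changed together. Each of the 8 combinations had 3 libraries, 24 in all. The labels gave no dose and no hour of collection, and did not say whether replicates were separate animals, so that p-values here reflect only how far these libraries scatter, which may be technical.

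Major urinary proteins are made by hepatocytes, secreted into blood and filtered into urine, where they carry volatile pheromones in a barrel-shaped pocket and release them slowly from scent marks. Mup20 protein, also called darcin, is itself a pheromone that draws females to a male's mark. Liver transcription of the family begins around puberty, is higher in males, and depends on pulsatile growth hormone acting through STAT5b, together with androgen, thyroid hormone and glucocorticoid. The genes lie in 1 cluster and most are near copies of one another.

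In the deposited tables (mm10, 1-based positions) all 5 loci were on chromosome 4. Mup7 lay at 60066469 to 60070475, Mup1 at 60498013 to 60501960, Mup20 at 62050235 to 62054117, Mup3 at 62083476 to 62087312 and Mup21 at 62147832 to 62150841. Each interval is a whole gene on the minus strand, with 7 annotated exons in GENCODE M21 for every member except Mup21, which has 6. The family as a whole took 30 entries between 59956806 and 62150841, so that Mup20, Mup3 and Mup21 formed the last 3 loci of the cluster.

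The second coding exon, 134 bases long in all 5 genes, is shown because, among the coding exons of equal length in all 5, it held the most positions at which any member differs (39 of 134). Sequences are from GENCODE M21 (GRCm38, the assembly of mm10), minus strand, 5′ to 3′, with capitals marking bases that differ from Mup1. They lie at chr4:60501282-60501415 (Mup1), chr4:60069733-60069866 (Mup7), chr4:62053480-62053613 (Mup20), chr4:62086800-62086933 (Mup3) and chr4:62150195-62150328 (Mup21).
Mup1: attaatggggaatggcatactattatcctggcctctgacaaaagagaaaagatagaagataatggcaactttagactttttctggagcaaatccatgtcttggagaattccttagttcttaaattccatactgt
Mup7: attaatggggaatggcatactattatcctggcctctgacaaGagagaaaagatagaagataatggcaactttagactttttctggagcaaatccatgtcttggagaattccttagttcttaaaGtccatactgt
Mup20: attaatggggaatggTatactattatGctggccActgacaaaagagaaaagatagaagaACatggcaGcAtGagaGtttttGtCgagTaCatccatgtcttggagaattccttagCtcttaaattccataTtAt
Mup3: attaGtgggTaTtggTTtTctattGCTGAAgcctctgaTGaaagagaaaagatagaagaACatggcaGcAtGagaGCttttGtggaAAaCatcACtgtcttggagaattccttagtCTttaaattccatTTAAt
Mup21: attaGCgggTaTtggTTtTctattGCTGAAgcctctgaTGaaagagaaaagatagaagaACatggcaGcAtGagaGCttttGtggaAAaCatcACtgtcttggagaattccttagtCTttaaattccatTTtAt

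The sequences fell into 2 close pairs and 1 gene apart. Mup7 differed from Mup1 at 2 bases of this exon, and Mup21 differed from Mup3 at 2 bases. Mup3 and Mup21 each differed from Mup1 at 33 bases, and Mup20 differed from Mup1 at 16. Over the whole coding sequence, identity was 98.9% for Mup1 with Mup7 and 94.8% for Mup3 with Mup21. Mup20 was 90.7% identical to Mup1 and 86.7% identical to Mup3.

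Near identity limits how well reads can be given to 1 gene. Of all 50-base words in the annotated transcript, 94.8% in Mup1 and 96.4% in Mup7 also occurred in a transcript of another gene. The share was 50.5% in Mup20, 19.3% in Mup21 and 16.6% in Mup3. The deposited FPKM, a fragment count scaled for transcript length and library size, carries an interval, and its half-width at day 60 had a median of 3.71% of the value for Mup1 and 4.18% for Mup7. It was 0.566% for Mup3, 0.563% for Mup20 and 2.17% for Mup21, the member with the lowest level. How much of the values of Mup1 and Mup7 belongs to each, and how much to other copies, is therefore uncertain, while Mup3 and Mup20 had the narrowest intervals.

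**Figure D1:**
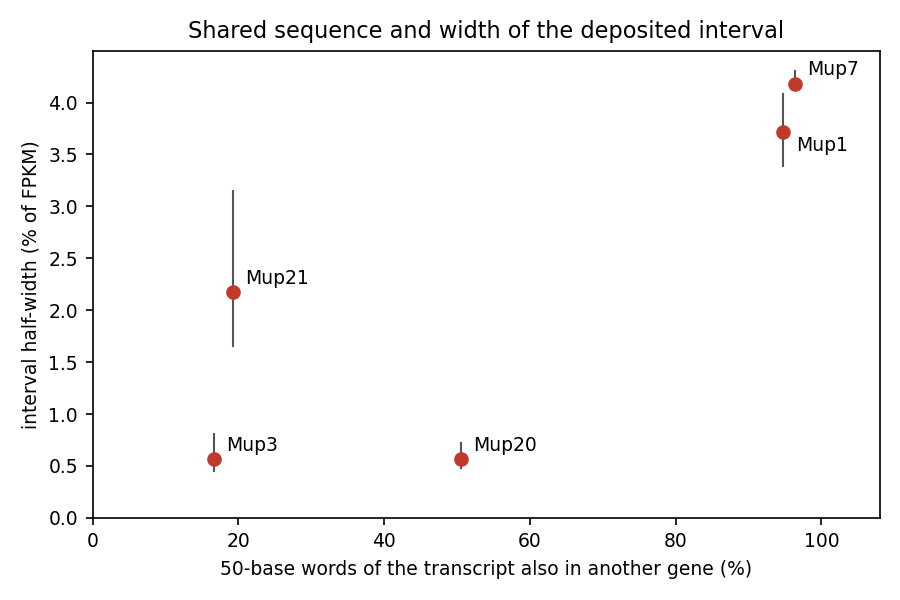
Share of 50-base words of each member's transcript that also occur in a transcript of another gene (x axis, %) against the half-width of the deposited interval as a percent of the FPKM (y axis). Points are medians over the 12 day 60 libraries and lines run from the lowest to the highest library; Mup1 and Mup7 stand at the upper right with 94.8% and 96.4% shared words.

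FPKM summed over all entries ranged from 451546 to 502499 per library, and read totals were not used here. Hepatocyte markers were abundant in every library, with no marker of 8 at 0 and a summed level of at least 18835 FPKM. Ddx3y, a gene of the Y chromosome, had 3.28 to 12.7 FPKM over the 24 libraries and Xist never more than 0.0164, the pattern of male tissue. One library, hCAR-TG day 5 CITCO replicate 2, stood apart in its Mup genes. All 5 members, and 12 of 14 other Mup genes with a usable estimate, had their highest newborn level there, against 5.63% of all 12282 genes tested. Its value was used as deposited, and results that rest on it are also given without it. Because it was singled out by its Mup values, leaving it out narrows the spread of these genes by choice. The p-values given without it are therefore no separate support.

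Expression in adults was high. In wild type mice at day 60 with corn oil, Mup3 had 6497, 6724 and 5035 FPKM and ranked 8th of 24344 genes by its group mean. Mup7 had 6802, 3504 and 2141 FPKM, and Mup20 had 4812, 2679 and 2603 FPKM. Mup1 followed with 2885, 1717 and 1004 FPKM and Mup21 with 573, 605 and 460 FPKM. Replicate 1 was the highest library for Mup1, Mup7 and Mup20 but lay between the others for Mup3 and Mup21, so that the order of the first 3 members changed from library to library. The 30 entries of the cluster together held 7.56% ± 2.18 of all FPKM in this group (SD, n = 3).

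At day 5 the same genes were near or below the limit of measurement. With corn oil, wild type libraries had 0.375, 0.822 and 0.278 FPKM of Mup3 and 0.425, 0.607 and 0.0991 FPKM of Mup20, and hCAR-TG libraries were alike. Intervals at these levels were wide, with half-widths of 43.0% to 75.9% of the value for Mup3 in the wild type corn oil libraries. Over all 12 newborn libraries, 1 FPKM was reached in 4 for Mup20, 3 for Mup3, 1 each for Mup1 and Mup7, and 0 for Mup21. The whole cluster held at most 0.00873% of FPKM in any newborn library.

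**Figure D2:**
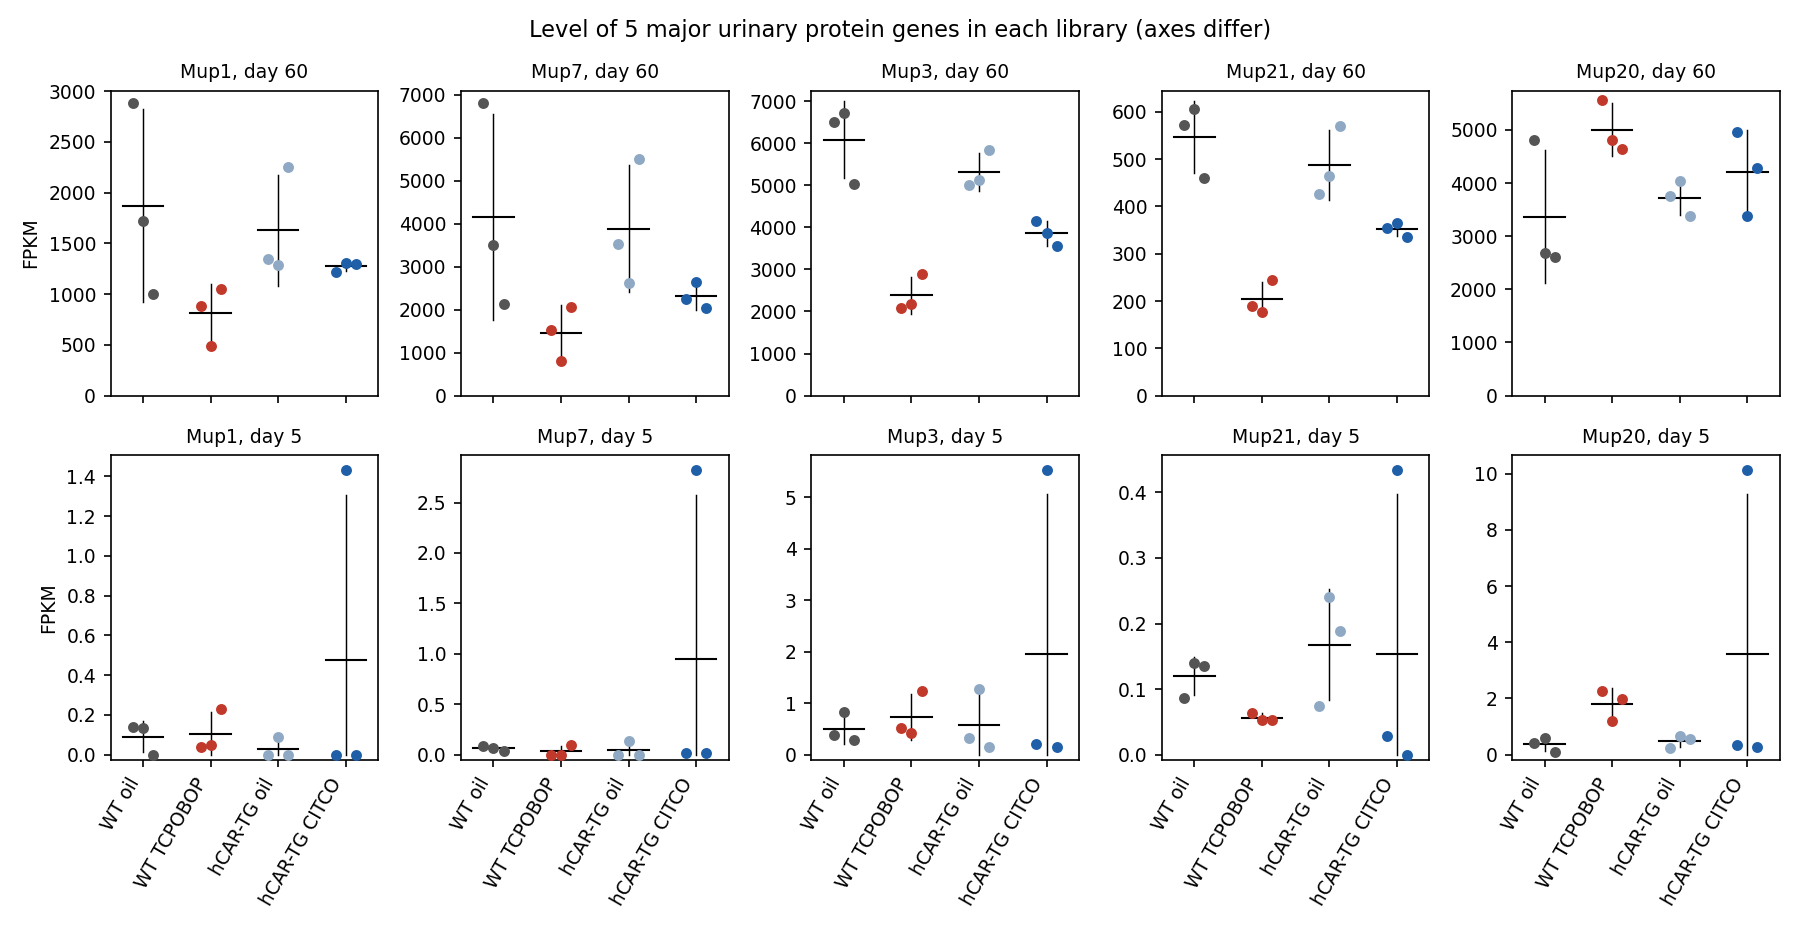
FPKM of each member (columns, linear y axes that differ between panels) at day 60 (upper row) and day 5 (lower row) by group. Points are single libraries, horizontal lines the mean of 3 and vertical lines ± 1 SD; in the lower row the single point far above the others is hCAR-TG day 5 CITCO replicate 2.

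The rise with age was the largest change of the family. All 5 members were called higher at day 60 than at day 5 with corn oil in wild type mice, where 25.2% of tested genes were called higher, and in hCAR-TG mice, where 24.3% were. Mup1, Mup7 and Mup21 passed the filter for testing only through their adult values. Their calls in this direction were favoured in advance and are no separate support. On the log2(FPKM + 1) scale the wild type rise was 12 ± 0.46 for Mup3 (± SE; limma adjusted p = 1.58e-13), 11.77 ± 0.47 for Mup7, 11.21 ± 0.55 for Mup20, 10.62 ± 0.36 for Mup1 and 8.92 ± 0.13 for Mup21. In hCAR-TG mice it was 8.70 for Mup21 to 11.79 for Mup7. Since newborn values lie below the added constant of 1, these differences understate the ratio of levels. The age groups did not overlap for any member, as in 74.3% of all genes in wild type and 70.5% in hCAR-TG mice. All 14 other Mup genes tested were called higher as well, in both genotypes. They too passed the filter only through adult values. Outside hCAR-TG day 5 CITCO replicate 2 none of them reached 1 FPKM in a newborn library, the highest being Mup2 at 0.871. Fewer expressing hepatocytes and less RNA per hepatocyte cannot be told apart in whole liver.

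TCPOBOP in adult wild type mice lowered 4 of the 5 members. Lower calls made up 15.8% of all genes tested in this comparison, and groups without overlap, as in 3 of the members, 60.0%. Mup3 was measured at 2091, 2182 and 2887 FPKM with TCPOBOP, all below the lowest corn oil library. The change was -1.35 ± 0.46 on the log2 scale (limma adjusted p = 0.0213). Mup21 was measured at 190, 177 and 245 FPKM, again below every corn oil library, a change of -1.42 ± 0.13 (limma adjusted p = 1.94e-08). The 2 genes of this close pair thus fell to a similar extent, to 0.392 and 0.373 of the corn oil mean.

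The near copies Mup7 and Mup1 also fell. Mup7 had 1533, 799 and 2069 FPKM with TCPOBOP, the highest of them just under the lowest corn oil library of 2141, a change of -1.44 ± 0.47 (limma adjusted p = 0.0170). Mup1 had 886, 490 and 1053 FPKM, and its groups overlapped, since corn oil replicate 3 had 1004, with a change of -1.15 ± 0.36 (limma adjusted p = 0.0142). Both changes lean on corn oil replicate 1, the highest library. Without it the change was -1.01 for Mup7 (limma adjusted p = 0.0994) and -0.77 for Mup1 (limma adjusted p = 0.0907), and Mup21 was the only member called. Mup3 was not called without it either (adjusted p = 0.0545). Mup21 was likewise the only member called without TCPOBOP replicate 2, the lowest library of Mup1 and Mup7 (adjusted p = 0.0887 for Mup1, 0.0987 for Mup7 and 0.0591 for Mup3). Mup3 was not called without corn oil replicate 2 (adjusted p = 0.0629) or TCPOBOP replicate 1 (adjusted p = 0.0649).

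Mup20 did not fall with them. Its libraries with TCPOBOP had 5571, 4804 and 4642 FPKM, against 4812, 2679 and 2603 FPKM with corn oil. The groups overlapped through corn oil replicate 1, and the change of 0.63 ± 0.55 was not called in the fit of all 24 libraries (limma adjusted p = 0.383). That fit shares 1 spread per gene over newborns and adults, and the newborn library apart enters it. In an added fit of the 12 day 60 libraries alone the standard error of Mup20 was 0.22 and the rise was called (limma adjusted p = 0.0354), as 34.1% of genes were. In the same fit Mup1, Mup3, Mup7 and Mup21 were all called lower, with adjusted p of 5.07e-06 for Mup3 and 0.0410 for Mup1, where 18.4% of genes were called lower. A fit of the compared libraries alone did not call the rise of Mup20, nor Mup1 (limma adjusted p = 0.105) or Mup7 (0.0849). An exact permutation test of the Mup20 level gave p = 0.30. Mup20 made up 17.6% to 23.2% of the summed FPKM of the 5 members in the corn oil libraries and 42.6% to 56.8% in the TCPOBOP libraries.

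Ratios within a library do not depend on scaling between libraries. Mup20 over Mup3 was 0.741, 0.398 and 0.517 in the corn oil libraries and 2.66, 2.20 and 1.61 in the TCPOBOP libraries, with no overlap, a 3.95-fold difference. An exact permutation test of 3 against 3 libraries cannot go below p = 0.10, and gave this value (two-sided; adjusted p = 0.20 over 8 ratio tests). Mup21 over Mup3 stayed between 0.0811 and 0.0914 in the same 6 libraries (exact permutation p = 0.30). Mup1 over Mup7 was 0.461 ± 0.0336 with corn oil and 0.567 ± 0.0532 with TCPOBOP (SD, n = 3), a 1.23-fold difference (exact permutation p = 0.10, adjusted p = 0.20). The groups did not overlap (0.490 at most with corn oil, 0.509 at least with TCPOBOP), in the pair with the most shared words.

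Of 14 other Mup genes tested, 6 were called lower and 0 higher, where 15.8% of all genes were called lower and 31.4% higher. Their median change was -0.75, against 0.06 over all genes tested. Called were Mup4, Mup6, Mup8, Mup12, Mup14 and Mup17. The fit of day 60 libraries alone also called 6, but without Mup14 (limma adjusted p = 0.0521) and Mup17 (0.0942) and with Mup2 (0.0129) and Mup10 (0.000908). The largest of these changes was in Mup8, from 628 to 252 FPKM (log2 change -1.27 ± 0.31, limma adjusted p = 0.00204). Mup14 went from 2273 to 1109 FPKM, a change of -0.98 ± 0.38. All 14 values were negative, the smallest -0.12 in Mup5, so that Mup20 was the only Mup gene tested with a positive value. Summed over the 19 usable Mup symbols the change was -0.72 ± 0.82 and was not called (limma adjusted p = 0.519), but it was in the fit of day 60 libraries alone (± 0.22, limma adjusted p = 0.0169). The cluster held 4.51% ± 0.801 of FPKM with TCPOBOP (SD, n = 3).

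Markers of several cell types differed in the same libraries. The summed level of 8 hepatocyte markers was 35407 to 43799 FPKM in the corn oil libraries and 18835 to 20906 with TCPOBOP, and 7 of the 8 were called lower, albumin (Alb) among them with a change of -1.32 ± 0.11. Of 26 abundant plasma protein genes 17 were called lower and 4 higher, beside 15.8% and 31.4% of all genes. Cholangiocyte markers summed to 18.5 to 23.7 FPKM with corn oil and 36.2 to 56.8 with TCPOBOP, with 2 of 5 called higher, Spp1 (18.8 and 41.2 FPKM) making up most of the sum. Stellate cell markers summed to 87.6 to 101.8 FPKM and 69.7 to 76.9, with 2 of 8 called lower and 2 higher. Erythroid markers (954 to 1303 FPKM and 486 to 838) and endothelial markers (97.8 to 112.4 and 92.4 to 97.1) were lower without overlap. So were the low sums of pancreas markers (at least 9.485 and at most 6.29) and intestine markers (at least 40.4 and at most 32.8). Kupffer cell sums overlapped (231.9 to 264.6 and 217.5 to 239.6). Hemopexin (Hpx, a heme carrier) changed by 0.89 ± 0.06, opposite in sign to the 17 plasma protein genes called lower. The positive value of Mup20 was not called in the fit of 24 libraries. The part of these shifts in the Mup result was not tested.

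**Figure D3:**
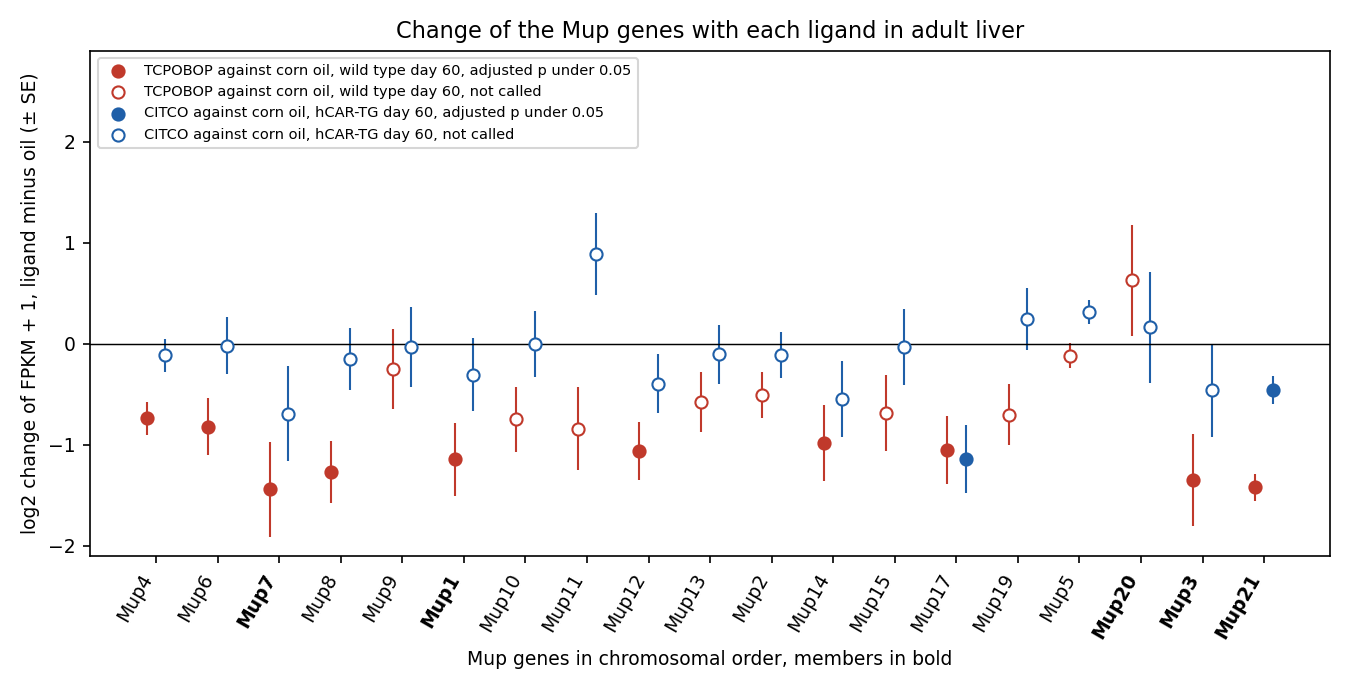
Change with TCPOBOP in wild type (red) and CITCO in hCAR-TG (blue) adult liver for the 19 Mup genes tested, in chromosomal order with the 5 members in bold. The y axis is the log2 change of FPKM + 1 with its SE from the limma fit of 24 libraries, and filled points have an adjusted p under 0.05; the Mup20 point lies above 0 for both ligands while Mup3 and Mup21 lie below.

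CITCO in adult hCAR-TG mice gave smaller differences with the same signs for every member. In this comparison 3.97% of genes were called lower, and Mup21 was the only member among them. Mup21 had 427, 464 and 570 FPKM with corn oil and 354, 364 and 335 FPKM with CITCO, without overlap (log2 change -0.46 ± 0.13, limma adjusted p = 0.0367). This call was lost without hCAR-TG corn oil replicate 2 (adjusted p = 0.0703), corn oil replicate 3 (0.179), or CITCO replicate 1 (0.0910), 2 (0.0696) or 3 (0.116). It was also lost in the fit of day 60 libraries alone (adjusted p = 0.0643), which called 9.87% of genes and none of the 5 members.

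Mup3 had 5009, 5121 and 5831 FPKM with corn oil and 4147, 3858 and 3563 FPKM with CITCO. These groups did not overlap either, as in 31.9% of all genes, but the change of -0.46 ± 0.46 was not called (limma adjusted p = 0.653; 0.0513 in the fit of day 60 libraries alone; called at 0.0146 in a fit of these 6 libraries alone). Mup7 changed by -0.69 ± 0.47, Mup1 by -0.31 ± 0.36 and Mup20 by 0.16 ± 0.55, all with overlapping groups and none called. Mup20 over Mup3 was 0.706 ± 0.111 with corn oil and 1.09 ± 0.186 with CITCO (SD, n = 3), without overlap, 1.54-fold, with the smallest exact permutation p the design allows (0.10; adjusted p = 0.20 over 8 ratio tests). Mup1 over Mup7 was 0.427 ± 0.0571 with corn oil and 0.558 ± 0.0731 with CITCO (SD, n = 3), 1.31-fold without overlap and with the same exact permutation p. The gap was thin, 0.491 at most with corn oil and 0.493 at least with CITCO. It is narrower than the deposited intervals, whose median half-widths were 3.71% for Mup1 and 4.18% for Mup7. Of the 14 other Mup genes only Mup17 was called, lower, at 6.29 FPKM with corn oil and 2.36 with CITCO (limma adjusted p = 0.0404). This call was lost in the fit of day 60 libraries alone (limma adjusted p = 0.175), which called none of the 14. Their median change was -0.07. The 8 hepatocyte markers summed to 39947 to 47460 FPKM with corn oil and 33095 to 38533 with CITCO, with 3 called lower and 1 higher, and their part in these differences was not tested.

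The 2 adult responses were then compared directly, as the response in hCAR-TG minus that in wild type. Calls in the positive direction, a less negative or more positive response to CITCO, covered 9.77% of genes. Mup21 was the only member called, with a difference of 0.96 ± 0.19 (limma adjusted p = 0.000474). It was not called with a pseudocount of 0.1 (0.97, limma adjusted p = 0.208). For Mup3 the difference was 0.89 ± 0.65 and was not called (limma adjusted p = 0.327), but it was in the fit of day 60 libraries alone (± 0.19, adjusted p = 0.00316, with 11.6% of genes called in this direction) and without hCAR-TG day 5 CITCO replicate 2 (adjusted p = 0.0304). The differences of Mup1 (0.84 ± 0.51), Mup7 (0.75 ± 0.66) and Mup20 (-0.47 ± 0.78) were not called in either fit. Receptor, ligand and genotype cannot be told apart in this comparison.

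With corn oil, no member was called different between hCAR-TG and wild type at either age, where 4.90% of genes were called at day 60 and 10.6% at day 5. The number ending the read file name (meaning not stated) also differed between all libraries of the 2 genotypes at each age. Within these libraries genotype and file number cannot be told apart. In hCAR-TG adults the 5 members ranged from -0.19 ± 0.46 (Mup3) to 0.20 ± 0.55 (Mup20) relative to wild type. The 95% intervals still allow differences of this order or larger, for Mup3 from -0.48 to 0.11 in the fit of day 60 libraries alone. The order of adult levels was the same for Mup3, Mup7, Mup1 and Mup21. Wild type corn oil was highest, then hCAR-TG corn oil, CITCO and TCPOBOP. For Mup3 the means were 6086 ± 917, 5320 ± 446, 3856 ± 292 and 2387 ± 436 FPKM (SD, n = 3), with overlap only between the 2 corn oil groups. For Mup20 the order ran from 5005 ± 496 FPKM with TCPOBOP through 4210 ± 788 with CITCO and 3724 ± 328 in hCAR-TG corn oil to 3365 ± 1254 in wild type corn oil, and neighbours overlapped throughout.

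In newborns no member was called with either ligand, where 35.9% of genes were called with TCPOBOP and 17.1% with CITCO. Mup20 had the clearest difference with TCPOBOP, at 2.26, 1.22 and 1.97 FPKM against 0.425, 0.607 and 0.0991 with corn oil. These groups did not overlap, as in 47.6% of genes, and the change of 1.03 ± 0.55 was not called (limma adjusted p = 0.158). Mup20 was called in a fit of these 6 libraries alone (limma adjusted p = 0.00420). It was also called when hCAR-TG day 5 CITCO replicate 2 was left out of the shared spread (limma adjusted p = 0.000697). That library was singled out by its high Mup values, so this second p-value is no separate support. The level with TCPOBOP was far under 1% of that in adults. In wild type newborns the number ending the read file name (meaning not stated) differed between all corn oil and all TCPOBOP libraries. Ligand and file number can therefore not be told apart here. Mup3 had 0.517, 0.424 and 1.24 FPKM with TCPOBOP, overlapping the corn oil libraries, and Mup1, Mup7 and Mup21 stayed below 0.25 FPKM in all 6.

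With CITCO at day 5, replicates 1 and 3 had 0.209 and 0.146 FPKM of Mup3 and 0.340 and 0.271 FPKM of Mup20, while replicate 2 had 5.54 and 10.1 FPKM. Mup1 was at 1.43 FPKM in replicate 2 and listed at 0 in the other 2 libraries. Replicate 2 held 0.0727% of the adult hCAR-TG corn oil mean for Mup7, 0.0880% for Mup1, 0.0893% for Mup21, 0.104% for Mup3 and 0.272% for Mup20. The male-biased genes Cyp4a12a and Cyp4a12b were also highest there among newborns, at 0.111% and 0.0933% of the adult mean. The other 16 of 18 male-biased genes were not, and only 1 of 26 plasma protein genes was. Shares of the adult level this small could not show in genes that newborns already express. Examples are Alb (41110 FPKM in replicate 2, adult mean 31956) and Cyp2d9 (119 and 591), so such genes could not stand out in these counts. Summed markers of 8 cell types gave no list by which replicate 2 stood apart, with the same limit for markers that newborns express. Its pancreas markers summed to 6.43 FPKM, against 315 in replicate 1, and its hepatocyte markers to 57565 against 59359 and 60368. Where the Mup reads of this library came from was not tested. Without it the change of Mup20 with CITCO was -0.18 in place of 0.85 ± 0.55, and that of Mup3 was -0.36 in place of 0.46 ± 0.46.

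**Figure D4:**
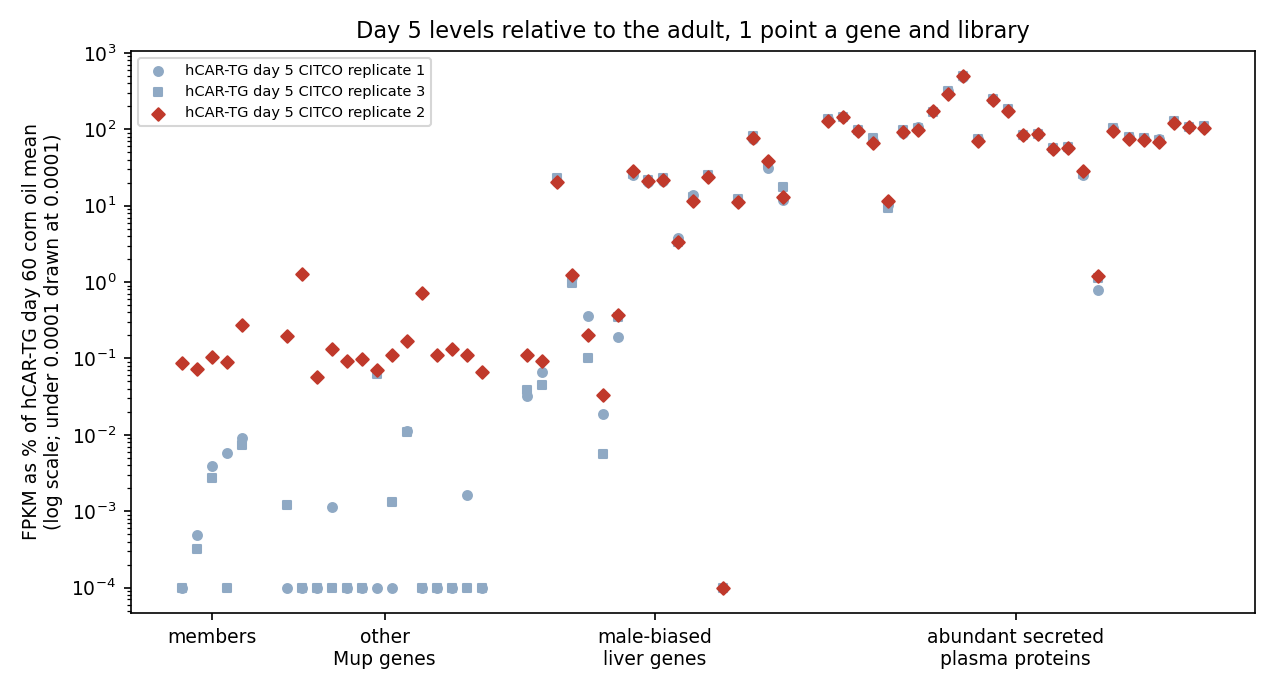
Levels in the 3 hCAR-TG day 5 CITCO libraries as a percent of the adult hCAR-TG corn oil mean (y axis, log scale, values under 0.0001% drawn at 0.0001%) for the 5 members, 14 other Mup genes, male-biased genes and plasma protein genes. Each point is 1 gene in 1 library. Replicate 2 lies near 0.1% for most Mup genes, far above replicates 1 and 3, while the replicates lie close together for the plasma protein genes. Most plasma protein genes are already high in newborns, where a share this small could not show.

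The response to TCPOBOP was lower in value at day 60 than at day 5 for all 5 members, and 9.76% of genes were called in this direction. For Mup20 this was a smaller positive value (0.63 at day 60, 1.03 at day 5), not a fall. Mup21 alone was called, with a difference of -1.34 ± 0.19 (limma adjusted p = 2.12e-05). This difference mostly restates the adult change, since newborn Mup21 reached 1 FPKM in 0 libraries and its response on the log2(FPKM + 1) scale is held near 0. In FPKM the newborn groups did not overlap either, as in 47.6% of genes. They were at 0.0868, 0.139 and 0.135 with corn oil and 0.0639, 0.0523 and 0.0525 with TCPOBOP. The deposited interval of each of these values reached 0, with half-widths of 115.5% to 239.6% of the value. The ratio of the group means was 0.468, beside 0.373 in adults. With newborn values this low, the ratio shows neither a newborn fall of Mup21 nor a difference between ages. With a pseudocount of 0.1 the difference was not called (-0.94, limma adjusted p = 0.270). For Mup3 the difference was -1.55 ± 0.65 (adjusted p = 0.0975), called without hCAR-TG day 5 CITCO replicate 2 (limma adjusted p = 0.000935). Mup1 (-1.17 ± 0.51) was called when wild type day 60 corn oil replicate 3 was left out (-1.55, limma adjusted p = 0.0275). Newborn Mup1, Mup3 and Mup7 were also near or below 1 FPKM, with TCPOBOP changes of 0.02, 0.20 and -0.05. The differences of these members therefore mostly restate their adult change as well. For CITCO no member was called, where 9.99% of genes were. The newborn responses differed by -0.18 ± 0.78 for Mup20 between hCAR-TG and wild type, with no member called against 33.7% of genes, and by -1.21 (adjusted p = 0.00835) without replicate 2.

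Across the 12 adult libraries the highest correlations were within the sequence pairs. Pearson's r of log2(FPKM + 1) was 0.993 for Mup3 with Mup21 and 0.977 for Mup1 with Mup7, and 0.921 and 0.973 for deviations from the group means. It was 0.853 for Mup3 with Mup7 and -0.622 for Mup3 with Mup20, the latter 0.0975 within groups. These r are descriptions over libraries that share scaling and, within a pair, ambiguous reads.

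**Figure D5:**
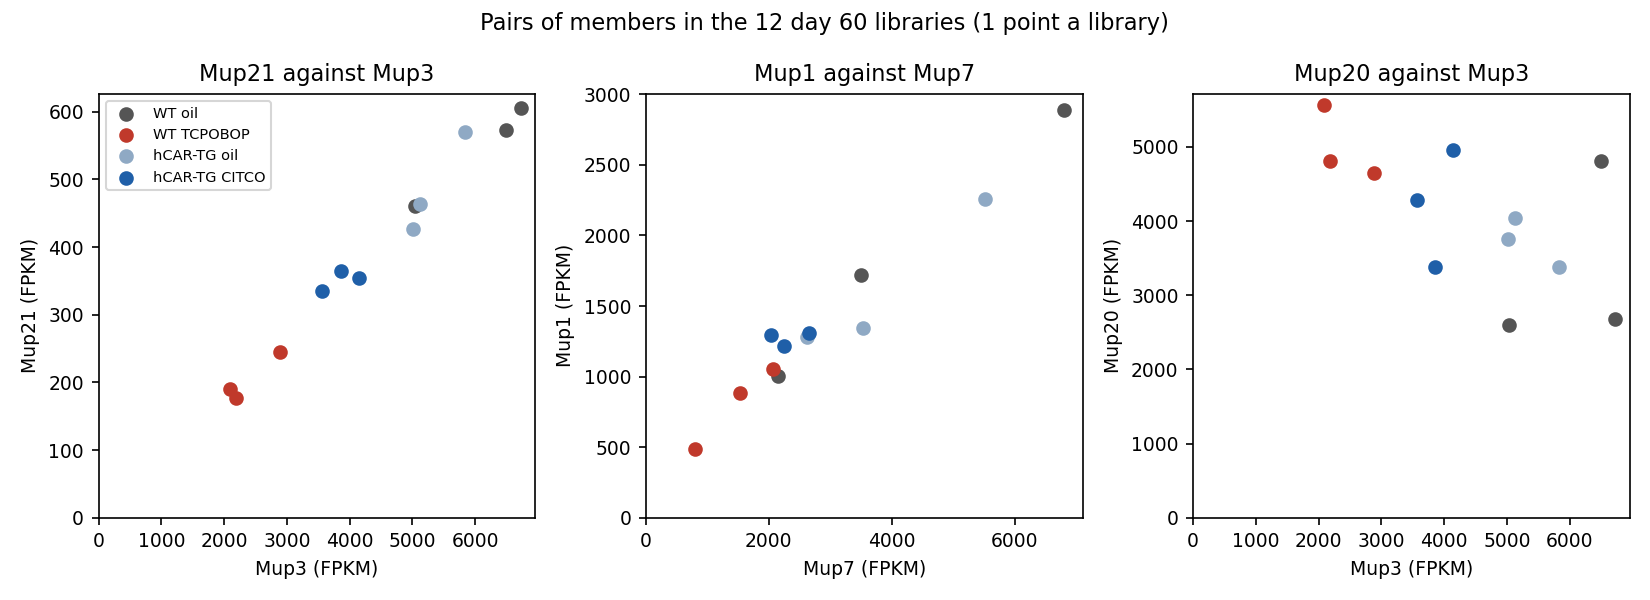
Pairs of members in the 12 day 60 libraries, with FPKM on both axes and 1 point a library, coloured by group. Mup21 against Mup3 (r = 0.993 on the log scale) and Mup1 against Mup7 (0.977) run along a line, while the TCPOBOP libraries of Mup20 against Mup3 lie at the upper left.

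RefSeq promoter entries (GRCm38.p6) were matched for 3 members, Mup3, Mup7 and Mup21. The 250 bases before the start are shown for Mup3 and Mup21 because these 2 genes moved together in the adults, at chr4:62087318-62087567 and chr4:62150842-62151091, minus strand. Capitals mark TATATAA, the letters of a TATA box, and ATCAAT, the core letters of ONECUT factor sites. Both strands were searched, and no matches overlapped.
Mup3: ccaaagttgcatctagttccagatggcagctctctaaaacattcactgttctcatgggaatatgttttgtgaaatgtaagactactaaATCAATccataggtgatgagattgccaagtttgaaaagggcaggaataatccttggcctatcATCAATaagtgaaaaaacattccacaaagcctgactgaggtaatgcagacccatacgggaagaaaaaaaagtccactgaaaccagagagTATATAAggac
Mup21: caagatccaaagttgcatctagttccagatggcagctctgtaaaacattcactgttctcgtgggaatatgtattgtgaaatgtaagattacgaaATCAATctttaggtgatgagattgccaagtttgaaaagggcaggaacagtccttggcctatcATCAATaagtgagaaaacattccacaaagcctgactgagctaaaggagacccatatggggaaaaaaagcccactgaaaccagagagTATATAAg

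The 2 windows were 92.3% identical over 247 aligned positions. ATCAAT occurred 2 times in each, and in 14 of 14 Mup promoters with an entry, against 6.72% of 32851 promoters of the same length. TATATAA occurred in 11 of 14, against 3.04% of all. TTCNNNGAA, the letters of a STAT site, occurred in 0 of 14 windows and in 7.02% of all, and the C/EBP letters TTGCNNAA in 0 of 14 and 9.56%. The 14 windows belong to related gene copies and are not independent, so the shares of all promoters are no test of the family. The matches are of letters in a short window and show no binding.

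Genes outside the family with the most similar adult pattern differed between the pairs. Over the 12 day 60 libraries Mup3 was closest to Cfhr2, a complement factor H related gene (r = 0.989), Acadsb, a branched-chain acyl-CoA dehydrogenase (0.984), and C9, a terminal complement component (0.983). The same 3 genes were among the 5 closest to Mup21. Closest to Mup1 was Ccnh (0.915, at most 6.24 FPKM) and closest to Mup7 was 2610301B20Rik (0.929, at most 2.91 FPKM). Serpina1e, an alpha-1-antitrypsin gene, was among the 5 closest to Mup1 and Mup7 (0.910 and 0.909), in place 3 and place 4. For Mup20 the highest r was 0.877, with Lrrc42. Over all 24 libraries, which fall into 2 ages, Cyp4a12a, a male-biased fatty acid hydroxylase, was among the 5 closest to Mup1, Mup3, Mup7 and Mup20 (r = 0.988 to 0.994), and Slc22a30 was closest to Mup21 (0.995).

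Most male-biased liver genes tested were called lower in TCPOBOP-treated adults and most female-biased genes higher, beside 15.8% of all genes lower and 31.4% higher. Of 16 male-biased genes tested, 9 were called lower and 1 higher, with a median change of -1.09 against 0.06 over all genes. Hsd3b5, a steroid dehydrogenase, went from 116 to 0.759 FPKM (-6.10 ± 0.32, limma adjusted p = 1.16e-11), and the organic anion carrier Slco1a1 from 108.2 to 5.94 FPKM (-4.04 ± 0.21). Of 17 female-biased genes, 12 were called higher and 2 lower. Among the 12, Hao2 changed by 2.63 ± 0.08, Sult3a1 by 3.92 ± 0.13, Cyp2b13 by 5.81 ± 0.19 and Cyp3a44 by 2.06 ± 0.11. Cyp2b13 and Cyp3a44 belong to P450 families known as targets of CAR as well. The list also holds Cyp2b9, Cyp3a41a and Cyp3a16 of the same families. Its counts with a CAR ligand therefore do not measure sex bias alone, and the part of CAR targets in them was not tested. With CITCO in hCAR-TG adults the male-biased list had 3 lower and 4 higher of 16, and the female-biased list 6 higher and 0 lower of 17, beside 3.97% of all genes lower and 4.40% higher. In the fit of day 60 libraries alone the male-biased list had 0 lower and 3 higher with CITCO, and the female-biased list 0 lower with TCPOBOP.

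Of 20 genes of the growth hormone pathway, 8 were called lower and 1 higher with TCPOBOP in adults, beside 15.8% and 31.4% of all genes. Their median change was -0.29. The receptor gene Ghr went from 209.9 to 82.9 FPKM (-1.32 ± 0.16, limma adjusted p = 1.08e-06) and Igf1 from 109 to 42.9 FPKM (-1.34 ± 0.23). Igfals, whose product carries IGF1 in blood, went from 35.8 to 11.1 FPKM (-1.61 ± 0.16). Stat5a was the gene called higher, from 5.01 to 7.96 FPKM. With CITCO 2 were called lower and 2 higher of 20, beside 3.97% and 4.40% of all genes, among them Bcl6, a transcriptional repressor, from 17.8 to 6.70 FPKM (-1.16 ± 0.30, limma adjusted p = 0.0205). Of 9 hormone receptors and repressors tied to Mup genes, 5 were called lower with TCPOBOP and 3 with CITCO, and none higher (2 with CITCO in the fit of day 60 libraries alone). Ghr, Bcl6 and the thyroid hormone receptors Thra and Thrb were among the former, and Thra (-0.48 ± 0.08) among the latter. Ghr and Bcl6 belong to both lists and are counted in each.

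Lipocalins outside the family were called in both directions. Of 10 tested, 4 were called higher and 2 lower with TCPOBOP, shares near the 31.4% and 15.8% of all genes. With CITCO 3 were called higher and 0 lower, beside 4.40% and 3.97% of all genes. The acute phase gene Orm3 went from 10.9 to 92.4 FPKM with TCPOBOP (3.11 ± 0.25, limma adjusted p = 4.84e-09) and from 20.9 to 71.9 FPKM with CITCO (1.80 ± 0.25, limma adjusted p = 0.000133). Lcn2, which binds bacterial iron carriers, went from 12.4 to 44.1 FPKM with TCPOBOP. Rbp4, the retinol carrier, was called lower with TCPOBOP, from 2626 to 1620 FPKM.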

How the data were processed

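Polyadenylated liver RNA of 24 libraries was sequenced after stranded TruSeq preparation, per the labels' protocols. The authors deposited 1 table of FPKM values per library, with the bounds of a 95% interval and a status per entry, per the file headers. The genome build was mm10 per the submitters' processing notes; no source here names the aligner, the quantifier or the annotation. How reads shared by near-identical Mup copies were divided is therefore unknown and affects single members.

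Each table held 24885 entries with 24342 symbols. Entries of 1 symbol were summed, and 5 genes with a failed estimate (Mup16 among them) were left out. The 12282 genes that reached 1 FPKM in 3 or more libraries were fitted as log2(FPKM + 1) with limma 3.58.1 in R 4.3.3 (lmFit, eBayes with trend and robust) in 1 model of 8 groups. All 5 members passed this filter, Mup1, Mup7 and Mup21 only through their adult values. Calls are two-sided Benjamini-Hochberg adjusted p under 0.05 over all tested genes, in 12 comparisons. The fit was tested on simulated data. Single ratios were tested by exact permutation. Depth in reads is unknown, so the deposited interval is the only measure of counting precision.

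The rule named the 5 members in every comparison, other Mup genes by level and counts, up to 4 called genes per list with the lowest adjusted p, and the 5 non-Mup genes most correlated with each member. The text prints part of these. Members and lists were chosen with earlier results of these data known. Identity of sequences was computed with Biopython 1.88, words of 50 bases from GENCODE M21 transcripts. Alternatives were median-of-ratios scaling, scaling by the total without Mup entries, a pseudocount of 0.1, no filter, a 5 FPKM filter, a replicate block, fits of the compared libraries alone, the number ending the read file name (meaning not stated) as a factor, and leaving out each library. Added after seeing the data were the fit of day 60 libraries alone, leaving hCAR-TG day 5 CITCO replicate 2 out of the comparisons without its group, a sum that adds Mup loci under other symbols, and leaving out each library in the ratios.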

Additional observations from a re-analysis of the deposited data

Results flagged for a closer look

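For Mup21 the difference between responses passed the threshold in 2 comparisons. The TCPOBOP response in wild type mice was more negative at day 60 than at day 5 by -1.34 on the log2(FPKM + 1) scale. Mup21 reached 1 FPKM in 0 newborn libraries, so that this value mostly restates the adult change. The ratio of means with TCPOBOP to corn oil was 0.468 in newborns and 0.373 in adults. The newborn ratio rests on values whose deposited intervals all reached 0, so that it shows no newborn fall. The adult response in hCAR-TG with CITCO was less negative than that in wild type with TCPOBOP, a difference of 0.96. Neither was called with a pseudocount of 0.1 (limma adjusted p = 0.270 and 0.208).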

How the results depend on the processing

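Most results kept their direction and side of the threshold. Numbers of members called that moved were as follows. With a pseudocount of 0.1, TCPOBOP in wild type adults called 1 (4 otherwise), and CITCO in hCAR-TG adults, the TCPOBOP response between ages and the adult difference between responses each called 0 (1 otherwise). CITCO in adults also called 0 with no filter, with the read file suffix as a factor and in the fit of day 60 libraries alone. In fits of the compared libraries alone, 1 was called for TCPOBOP at day 5 and 2 each for TCPOBOP in adults, CITCO in adults, the TCPOBOP response between ages and the adult difference between responses. The fit of day 60 libraries alone called 2 in that difference, and the summed Mup change of -0.72 with TCPOBOP became significant (limma adjusted p = 0.0169). The suffix factor was confounded with the groups, and could not be estimated, for TCPOBOP at day 5 and for the TCPOBOP response between ages. The same held for the newborn difference between responses, for hCAR-TG against wild type at day 5 and for the rise with age in hCAR-TG mice.

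Leaving out single libraries, the called members ranged from 1 to 5 for TCPOBOP in adults, 0 to 1 for CITCO in adults, 0 to 1 for TCPOBOP at day 5, 1 to 2 for the TCPOBOP response between ages, 0 to 1 for the newborn and 1 to 2 for the adult difference between responses. The upper end of 5, and of the TCPOBOP day 5 and both difference counts, came without hCAR-TG day 5 CITCO replicate 2, whose removal narrows the shared spread.

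Directions turned only in results that were not called in the fit of 24 libraries. With a pseudocount of 0.1 the newborn summed Mup difference was -0.21 and Mup3 in hCAR-TG against wild type newborns -0.060. Without single libraries the TCPOBOP change at day 5 ran from -0.061 to 0.062 in Mup1 and -0.0040 to 0.35 in Mup3. The CITCO change at day 5 ran from -0.041 to 0.60 in Mup1, -0.36 to 0.89 in Mup3, -0.040 to 0.92 in Mup7, -0.18 to 1.39 in Mup20, -0.20 to 0.059 in Mup21 and -0.61 to 1.65 in the sum. Its difference between ages ran from -1.22 to 0.34 in Mup20 and -1.89 to 0.36 in the sum. The newborn difference between responses ran from -0.059 to 0.58 in Mup1, -0.56 to 0.70 in Mup3, -1.21 to 0.36 in Mup20, -0.12 to 0.14 in Mup21 and -1.33 to 0.92 in the sum. Between genotypes it was -0.25 to 0.24 in Mup3, -0.091 to 0.0029 in Mup7, -0.035 to 0.24 in Mup20 and -0.70 to 0.082 in the sum at day 5. At day 60 it was -0.50 to 0.26 in Mup1, -0.40 to 0.44 in Mup7 and -0.30 to 0.16 in the sum. Causes were not tested.

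Same-numbered replicates correlated between -0.18 and 0.26, so the numbers do not pair the libraries. The replicate block changed no call, with 4 members called for TCPOBOP and 1 for CITCO in adults. Median-of-ratios scaling shifted the median of all genes by -0.11 for TCPOBOP in wild type adults. Counting precision rests on the deposited intervals alone.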
